A study of Mus musculus with 8 samples.

Results

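The genes described here were 44 genes of protein folding, degradation and stress sensing in the endoplasmic reticulum (ER), among 54532 genes in the count table. They were picked by symbol from ER chaperones, isomerases, components of ER-associated degradation (ERAD) and the IRE1 and ATF6 branches of the unfolded protein response. This rule uses no measured value, but the genes were chosen with earlier results of these data known. RNA was measured in 4 libraries of MTP KO and 4 libraries of WT MA-10 cells, a mouse Leydig tumour line that makes steroids when its cAMP pathway is stimulated. The KO cells had been made by electroporation of Cas9 and guide RNAs against Mttp, the gene of the microsomal triglyceride transfer protein (MTP), a lipid transfer protein of the ER. Both groups had spent 48 h in culture and then 3 h in 0.5 mM 8-BrcAMP, a cell-permeable cAMP analog, so no unstimulated cells were compared. The study describes several KO clones, and the sources used here do not say which was sequenced. An effect of the knockout and one of a clone cannot be told apart in these libraries. Because all 8 libraries carry wild type as their genotype entry in the labels, the groups were taken from the titles. The study calls the replicates biological, but neither it nor the labels say that libraries of a group came from separate cultures, so p-values measure only the spread between these libraries, which may be technical.

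Proteins that enter the ER are folded there by chaperones and enzymes before they move on. BiP, the product of Hspa5, binds unfolded chains with the help of DnaJ partners and nucleotide exchange factors. Calnexin and calreticulin hold glycoproteins by their sugars, protein disulfide isomerases make and rearrange disulfide bonds, and chains that fail to fold are pulled back to the cytosol and degraded by ERAD. The membrane sensors IRE1 (Ern1) and ATF6 read the load of unfolded protein. IRE1 splices the Xbp1 mRNA, and XBP1 and the cleaved form of ATF6 raise transcription of many chaperone and ERAD genes through short promoter elements. In steroid-making cells the ER also carries many, but not all, of the enzymes of cholesterol and steroid synthesis.

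The promoter elements are shown because they are the sequence that many of these genes share. The elements were searched on both strands: the ER stress element ERSE (CCAAT, any 9 bases, CCACG), ERSE-II (ATTGG, any base, CCACG) and the unfolded protein response element UPRE (TGACGTGG, whose opposite strand also holds CCACG). The RefSeq promoters of GRCm38.p6, which run from 250 bases before to 50 bases after each transcript start, covered 37 of the 44 genes with 42 promoters. An ERSE was found in 10 of these 42 promoters (23.8%), against 39 of all 32851 promoters (0.119%). ERSE-II was found in 2 of them, against 0.0365% of all promoters, and the UPRE in 4, against 0.676% of all promoters. No gene had more than 1 kind of element. Each line below reads 5′ to 3′ in the direction of the gene, with the letters of the element in capitals and the call in KO cells in brackets. CGTGG and ATTGG in capitals mark an ERSE that lies on the opposite strand.
Hspa5 at chr2:34772019-34772049, + strand (lower): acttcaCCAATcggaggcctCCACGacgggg
Calr at chr8:84847069-84847099, - strand (lower): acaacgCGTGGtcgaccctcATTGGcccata
Pdia6 at chr12:17266485-17266515, + strand (lower): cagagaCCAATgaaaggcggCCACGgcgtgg
Canx at chr11:50325794-50325824, - strand (not called): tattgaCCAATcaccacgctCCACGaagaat
Dnajc3 at chr14:118937821-118937851, + strand (not called): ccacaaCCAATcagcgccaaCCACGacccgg
Creld2 at chr15:88819514-88819544, + strand (not called): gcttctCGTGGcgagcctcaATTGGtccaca
Syvn1 at chr19:6046526-6046556, + strand (higher): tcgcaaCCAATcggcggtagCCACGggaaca
Herpud1 at chr8:94386371-94386393, + strand, ERSE-II (higher): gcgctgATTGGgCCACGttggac
Txndc5 at chr13:38528039-38528058, - strand, UPRE (higher): cgccgcTGACGTGGcgctag
Txndc11 at chr16:11134621-11134640, - strand, UPRE (lower): tgtggcTGACGTGGagagtc
Genes with the same element thus carried different calls. The ERSE was found in 5 of 20 genes that were lower in KO cells, 1 of 7 that were higher and 3 of 9 that were not called and had a promoter in the table. Positions were counted from the RefSeq starts, and the elements of Hspa5, Txndc5 and Txndc11 lie inside the longer gene spans of the count table. A match is a description of the letters in this window and was not tested as a binding site.

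The libraries held 14927989 to 18394797 counts in KO cells and 15075610 to 16321292 counts in WT cells. In all, 13185 genes passed the filter on low counts. As a check of the labels, Mttp had 5.09, 4.52, 6.75 and 7.13 CPM (read counts relative to the TMM-scaled library size) in KO libraries 1 to 4, against 12.9, 11.9, 13.3 and 14.4 CPM in WT libraries 1 to 4. Its log2 fold change was -1.15 (SE 0.135, adjusted p = 4.45e-06), and reads of Mttp remained in every KO library. The Leydig cell markers Cyp11a1, Star, Hsd3b1, Cyp17a1, Nr5a1, Insl3, Lhcgr and Fdx1 were detected, with a summed level of 9224 to 10247 CPM in KO libraries and 8805 to 9824 CPM in WT libraries. Most of this sum came from Star and Fdx1, neither of which was called. In contrast, 5 of the 8 markers were higher in KO cells past a log2 fold change of 0.5 with no overlap between the groups (median of the 8 markers 1.29). Of all tested genes, 7.35% were called that far up, and in 19.7% every KO library lay above every WT library. The part of this marker difference in the results was not tested. Mitochondrial genes took 4.92 to 6.16% of counts in KO libraries and 3.65 to 4.8% in WT libraries, and the part of this difference in the results was not tested. These are bulk libraries, in which fewer cells of a kind and less RNA per cell cannot be told apart.

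Lower calls outnumbered higher calls among the isomerases (8 against 2) and in the BiP system (5 against 0), while the ERAD channel group had 4 higher calls and 1 lower call. Of the 43 genes tested, 20 were lower in KO cells (46.5%), 7 were higher (16.3%, with Syvn1 lower instead once centred on its chromosome) and 16 were not called, at an edgeR adjusted p below 0.05 over all tested genes. Among all tested genes 21.1% were lower, 21.7% were higher and 42.7% were called in either direction, against 62.8% of the ER genes. Among the 6737 tested genes at or above the mean level of the least abundant ER gene tested (24.4 CPM), 51.1% were called. Lower and higher calls were not counted separately among those genes. The median log2 fold change (KO over WT) of the 43 genes was -0.14, against 0.00 over all tested genes. Most changes were small. The median absolute log2 fold change was 0.17 for the ER genes and 0.20 for all tested genes, the called genes spanned 0.15 to 0.84 in the lower and 0.13 to 0.45 in the higher direction, and the genes not called lay between -0.15 and 0.08. Past the limit of 0.5 on the log2 scale that the study used, 6 were lower (Pdia5, Edem1, P4hb, Hspa5, Dnajb9 and Ern1), where 8.44% of all tested genes were called that far down. None (0 of 43) were called past the limit in the higher direction by edgeR, DESeq2 or limma voom, where edgeR called 7.35% of all tested genes that far up. The highest log2 fold change was 0.45 by edgeR (Txndc5, 0.46 by DESeq2), so the edgeR count is also 0 at an unadjusted p under 0.05. In 15 genes every KO library lay below every WT library and in 6 every KO library lay above every WT library, against 18.9% and 19.7% of all tested genes. Derl3, a derlin of the ERAD channel, was the gene not tested, with 11, 7, 0 and 4 counts in KO libraries and 5, 5, 11 and 8 counts in WT libraries.

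**Figure D1:**
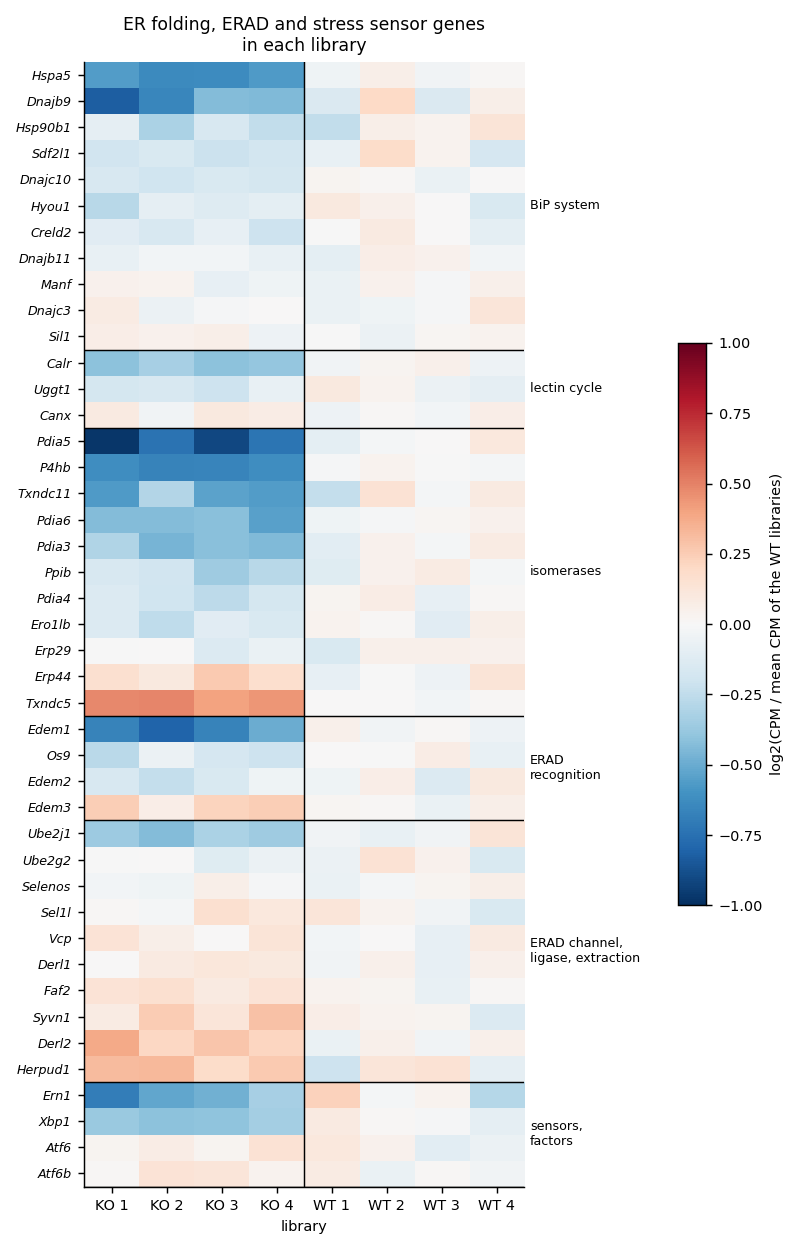
Level of each of the 43 tested genes in each library, as log2 of its CPM over the mean CPM of the 4 WT libraries, with KO libraries on the left, WT libraries on the right and genes grouped by role. Blue (lower) prevails in the KO columns of the BiP system, the lectin cycle and the isomerases, with Pdia5, P4hb, Edem1 and Hspa5 among the darkest rows, while Txndc5, Derl2 and Herpud1 are red.

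Among the chaperones of the BiP system, 5 of 11 genes were lower in KO cells (45.5%), none were higher and 6 were not called. Their median log2 fold change was -0.15. Over all tested genes 21.1% were lower, 21.7% were higher and 42.7% were called in either direction. The share called was 51.1% among genes at or above the mean level of the least abundant ER gene tested, against 45.5% here. Hspa5, which encodes BiP, had 2586, 2443, 2453 and 2572 CPM in KO libraries, against 3682, 3968, 3709 and 3840 CPM in WT libraries. The groups did not overlap, and the mean was 2514 ± 75.9 CPM in KO cells and 3800 ± 132 CPM in WT cells (SD, n = 4 each). Hspa5 thus changed by -33.9% (log2 fold change -0.60, SE 0.0423, 95% interval -0.69 to -0.51, adjusted p = 1.72e-08). Its gene lies on chromosome 2 (chr2:34771970-34777547, + strand, GRCm38). The ERSE printed above ends 47 bases before the RefSeq start and lies inside the longer span of the count table. Dnajb9 encodes ERdj4, a DnaJ partner of BiP that is known to hold IRE1 in check. Its level was 23.5, 26.4, 30.8 and 30.7 CPM in KO libraries and 37.7, 47.8, 37.6 and 43.3 CPM in WT libraries, and the change was -0.58 on the log2 scale (SE 0.0951, adjusted p = 0.000141), with no overlap. Dnajc10, a DnaJ protein with thioredoxin-like folds that reduces disulfides for ERAD, was lower by a smaller step (-0.17, adjusted p = 0.00807).

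The other chaperones of this system differed less. Hsp90b1, the ER form of HSP90 (GRP94), had 406, 347, 386 and 364 CPM in KO libraries, against 363, 449, 442 and 471 CPM in WT libraries. WT library 1 lay inside the KO range, and the log2 fold change was -0.20 (SE 0.071, adjusted p = 0.0338). Sdf2l1, a partner of ER DnaJ proteins, had 51.3, 52.7, 50.4 and 51.4 CPM in KO libraries and 55.6, 66.5, 59.8 and 52 CPM in WT libraries (-0.18, adjusted p = 0.0407). KO values of Sdf2l1 were close together, while WT library 4 fell inside them. Hyou1 encodes GRP170, a nucleotide exchange factor of BiP. It had 167, 190, 185 and 189 CPM in KO libraries and 216, 209, 202 and 182 CPM in WT libraries, a log2 fold change of -0.15 with an interval of -0.27 to -0.02 that missed the threshold (adjusted p = 0.0546). Creld2, a disulfide-handling protein of the ER stress response, had 62.8, 60.8, 64.2 and 58.9 CPM in KO libraries and 67.7, 72.5, 68.3 and 63.4 CPM in WT libraries (-0.14, adjusted p = 0.0565). Sil1 (0.03), the other exchange factor of BiP, Dnajb11 (-0.05) and Dnajc3 (0.00), further DnaJ partners, and Manf (-0.02), a factor that binds BiP and is secreted under stress, were not called. No member of this group had a log2 fold change above 0.03.

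In the lectin chaperone cycle, calreticulin was lower in KO cells, calnexin was not called and Uggt1 was lower by a smaller step. Calr, the soluble lectin, had 716, 756, 715 and 729 CPM in KO libraries, against 929, 970, 987 and 918 CPM in WT libraries. Without overlap between the groups, its log2 fold change was -0.38 (SE 0.0428, interval -0.47 to -0.29, adjusted p = 2.61e-06). Canx, the membrane-bound lectin, had 523, 481, 527 and 517 CPM in KO libraries and 475, 495, 484 and 514 CPM in WT libraries, with a log2 fold change of 0.06 (interval -0.04 to 0.15, adjusted p = 0.337). These intervals do not meet, although no test of the difference between the genes was made. Uggt1, the glucosyltransferase that returns unfolded glycoproteins to the cycle, had 183, 185, 179 and 197 CPM in KO libraries and 221, 212, 199 and 195 CPM in WT libraries (-0.15, SE 0.0517, adjusted p = 0.0263). Only WT library 4 fell inside the KO range for Uggt1.

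The isomerases and oxidases held the largest share of lower genes. Of 11 genes, 8 were lower in KO cells (72.7%), 2 were higher (18.2%) and 1 was not called, with a median log2 fold change of -0.24. The shares over all tested genes were 21.1% lower and 21.7% higher. The largest change of all 43 genes was in Pdia5, a protein disulfide isomerase known from human cells to act on ATF6. Pdia5 had 15.9, 18.7, 16.6 and 18.8 CPM in KO libraries, against 29.2, 30.8, 31.3 and 33.6 CPM in WT libraries. With no overlap, this was a change of -44.1%, or -0.84 on the log2 scale (SE 0.0763, adjusted p = 2.76e-07). P4hb encodes the classical protein disulfide isomerase, which is also the smaller subunit of the MTP complex. P4hb had 572, 555, 558 and 573 CPM in KO libraries and 877, 903, 878 and 869 CPM in WT libraries, with means of 565 ± 9.02 CPM in KO cells and 882 ± 14.6 CPM in WT cells (SD, n = 4 each). Its log2 fold change of -0.64 (SE 0.0399, interval -0.73 to -0.56) had the smallest adjusted p among the ER genes, 3.54e-09, and the gene lies at chr11:120560298-120573253 on the - strand (GRCm38).

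Txndc5 was the isomerase with the largest change in the higher direction. This thioredoxin-domain isomerase (ERp46) had 283, 284, 269 and 276 CPM in KO libraries, against 204, 204, 199 and 205 CPM in WT libraries. The groups did not overlap, and the log2 fold change was 0.45 (SE 0.0427, interval 0.36 to 0.54, adjusted p = 4.05e-07). Erp44, which retrieves ER oxidases and other clients from the Golgi, was also higher, with 88.3, 84.7, 95 and 89.1 CPM in KO libraries and 74.8, 79, 76.4 and 86.3 CPM in WT libraries (0.17, SE 0.0572, adjusted p = 0.0217). WT library 4 overlapped the KO range for Erp44. Ero1lb, the oxidase that recharges protein disulfide isomerase (Ero1b in RefSeq), had 79.6, 73.5, 81.2 and 78.8 CPM in KO libraries and 89.8, 88.4, 81.1 and 91.1 CPM in WT libraries (-0.16, SE 0.0542, adjusted p = 0.0245), with KO library 3 and WT library 3 nearly equal. Pdia4, the isomerase ERp72, had 127, 122, 117 and 124 CPM in KO libraries and 143, 147, 132 and 141 CPM in WT libraries, with no overlap (-0.20, SE 0.0496, adjusted p = 0.00434). When centred on its chromosome, Pdia4 was no longer called (-0.10, adjusted p = 0.124). The other lower genes were Txndc11 (-0.48), a thioredoxin-domain protein of the ER membrane, Pdia6 (-0.46), an isomerase known to bind the stress sensors, Pdia3 (-0.41), the partner of the lectins, and Ppib (-0.24), cyclophilin B, a proline isomerase. Every KO library of these 4 genes lay below every WT library. Erp29, a chaperone without a thioredoxin active site, was not called (-0.05, interval -0.17 to 0.08).

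**Figure D2:**
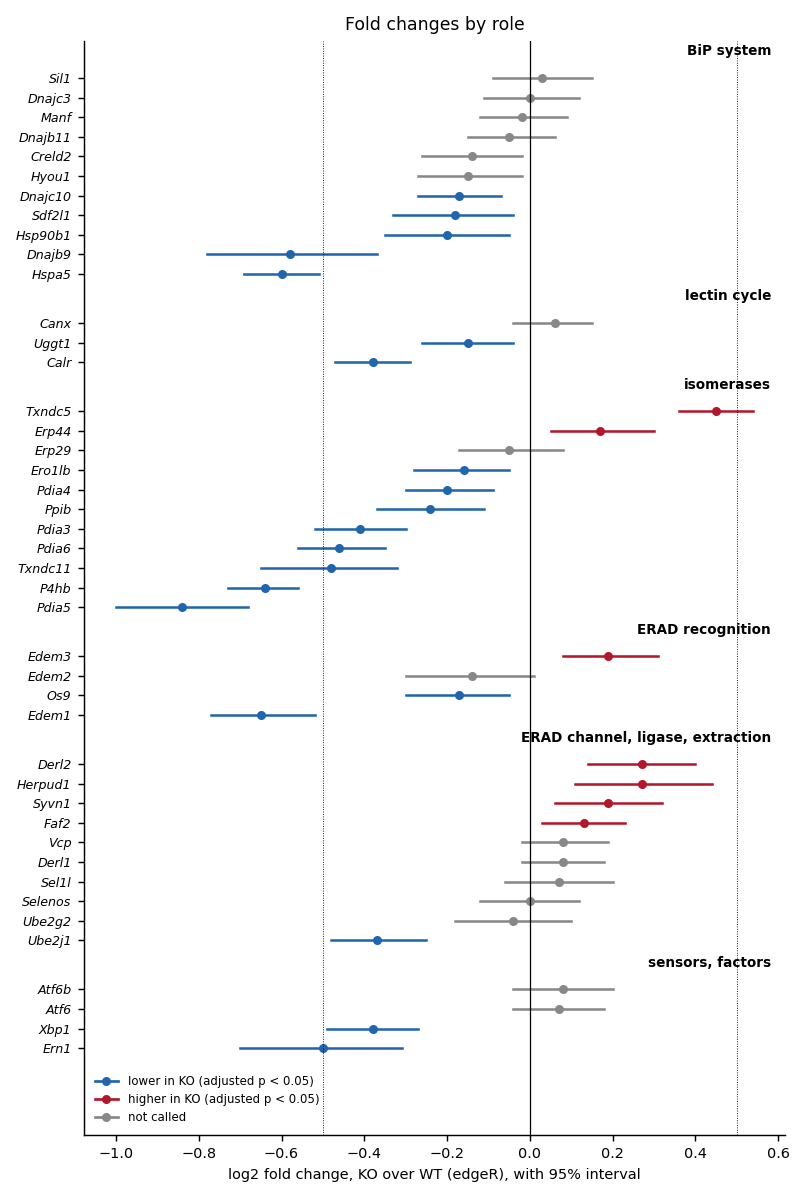
Log2 fold change (KO over WT, edgeR) with its 95% interval for each of the 43 tested genes, grouped by role, with dotted lines at -0.5 and 0.5. Points of the BiP system, lectin cycle and isomerases lie mostly left of 0, from -0.84 for Pdia5, whereas the 4 called higher in the ERAD channel group reach 0.27, with Syvn1 being negative once centred on its chromosome.

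Genes that recognise ERAD clients moved in both directions. Edem1, whose product helps to trim mannose from misfolded glycoproteins, had 75.1, 68.4, 75.1 and 84.3 CPM in KO libraries, against 123, 116, 120 and 115 CPM in WT libraries. Its log2 fold change was -0.65 (SE 0.0597, interval -0.77 to -0.52, adjusted p = 3.31e-07), with no overlap. Edem3, a related mannosidase, was higher, with 177, 156, 174 and 177 CPM in KO libraries and 151, 150, 142 and 155 CPM in WT libraries (0.19, SE 0.0532, interval 0.08 to 0.31, adjusted p = 0.0078). All KO libraries lay above all WT libraries, KO library 2 by a narrow margin. The ratio of Edem3 to Edem1 CPM was 2.1 to 2.36 in KO libraries and 1.18 to 1.35 in WT libraries, a description of 2 genes picked after their values were seen. Os9, a lectin that passes trimmed glycoproteins to the ERAD ligase, had 53.9, 62.4, 57.8 and 56.4 CPM in KO libraries and 65.2, 64.8, 68.5 and 61.6 CPM in WT libraries (-0.17, SE 0.0587, adjusted p = 0.0246). KO library 2 overlapped the WT range for Os9. Edem2, the mannosidase that acts first in the series, was not called (-0.14, interval -0.30 to 0.01).

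The channel, ligase and extraction genes of ERAD stood nearer to 0. Of 10 genes tested, 4 were higher in KO cells (40%), 1 was lower (10%) and 5 were not called, with a median log2 fold change of 0.08. Among all tested genes 21.7% were higher, 21.1% were lower and 42.7% were called, against 50% called here. The share called was 51.1% among genes at or above the mean level of the least abundant ER gene tested. Of the 4 higher genes, Syvn1 turned negative once fold changes were centred on its chromosome. Derl2, a derlin of the retrotranslocation channel, had 50.3, 44.5, 46.8 and 44.8 CPM in KO libraries, against 36.9, 40, 37.7 and 39.9 CPM in WT libraries. Its log2 fold change was 0.27 (SE 0.0603, adjusted p = 0.00177), with no overlap. Herpud1, an ER stress-induced scaffold of the ligase complex, had 42.2, 42.3, 38.4 and 40.6 CPM in KO libraries and 29.3, 36.8, 37.4 and 31.7 CPM in WT libraries (0.27, SE 0.0767, adjusted p = 0.0089). Its KO values lay closer together than its WT values, without overlap. Faf2, which recruits the extraction ATPase to the ER membrane, had 86.1, 87.8, 83.5 and 86.4 CPM in KO libraries and 80.6, 79.9, 74.4 and 79.3 CPM in WT libraries (0.13, SE 0.0489, adjusted p = 0.0434). This was the smallest fold among the called genes.

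Syvn1 encodes HRD1, the ubiquitin ligase at the centre of the channel. It had 87, 98.5, 89.5 and 101 CPM in KO libraries and 86.3, 84.3, 84 and 75.1 CPM in WT libraries, and its log2 fold change was 0.19 (SE 0.0618, adjusted p = 0.021), or -0.32 (adjusted p = 0.000625) when centred on the median of its chromosome. Syvn1 is the only one of these genes on chromosome 19, where the median log2 fold change of all tested genes was 0.51. Chromosome 3, the only other chromosome singled out here because Mttp lies on it, had a median of -0.22 and held none of the 44 genes. Ube2j1, the ubiquitin-conjugating enzyme of the ER membrane, was the lower gene of this group, with 122, 116, 126 and 123 CPM in KO libraries against 153, 149, 153 and 172 CPM in WT libraries (-0.37, SE 0.0539, adjusted p = 4.64e-05). Its groups did not overlap. Vcp, the ATPase that pulls clients out of the membrane, was the most abundant of the group per kilobase and had 654, 617, 594 and 649 CPM in KO libraries and 584, 596, 562 and 632 CPM in WT libraries (0.08, interval -0.02 to 0.19, adjusted p = 0.195). Sel1l (0.07), the partner of HRD1, Derl1 (0.08), Selenos (0.00), a selenoprotein that binds the derlins, and Ube2g2 (-0.04), a further conjugating enzyme, were not called.

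Of the sensors and their factors, the IRE1 pair was lower and the ATF6 pair was not called. Ern1, which encodes IRE1, had 83.6, 94.2, 96.5 and 107 CPM in KO libraries, against 158, 133, 138 and 111 CPM in WT libraries. The groups did not overlap but came close between KO library 4 and WT library 4, and the coefficient of variation was 9.86% in KO and 14.4% in WT libraries. The log2 fold change was -0.50 (SE 0.0903, interval -0.70 to -0.31, adjusted p = 0.000296), just past the limit before rounding. Xbp1, the mRNA that IRE1 splices, had 81.9, 79.9, 80 and 83.6 CPM in KO libraries and 113, 107, 105 and 99.4 CPM in WT libraries, with no overlap (-0.38, SE 0.0507, interval -0.49 to -0.27, adjusted p = 1.63e-05). Counts per gene do not separate spliced from unspliced Xbp1. Atf6 had 241, 249, 240 and 261 CPM in KO libraries and 254, 243, 219 and 227 CPM in WT libraries, and its log2 fold change of 0.07 had an interval of -0.04 to 0.18 (adjusted p = 0.309). Atf6b, its paralog, had 52.1, 56.8, 56.2 and 53.1 CPM in KO libraries and 54.7, 49.4, 52.2 and 50.4 CPM in WT libraries (0.08, interval -0.04 to 0.20, adjusted p = 0.29). For both ATF6 genes the KO and WT ranges overlapped.

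**Figure D3:**
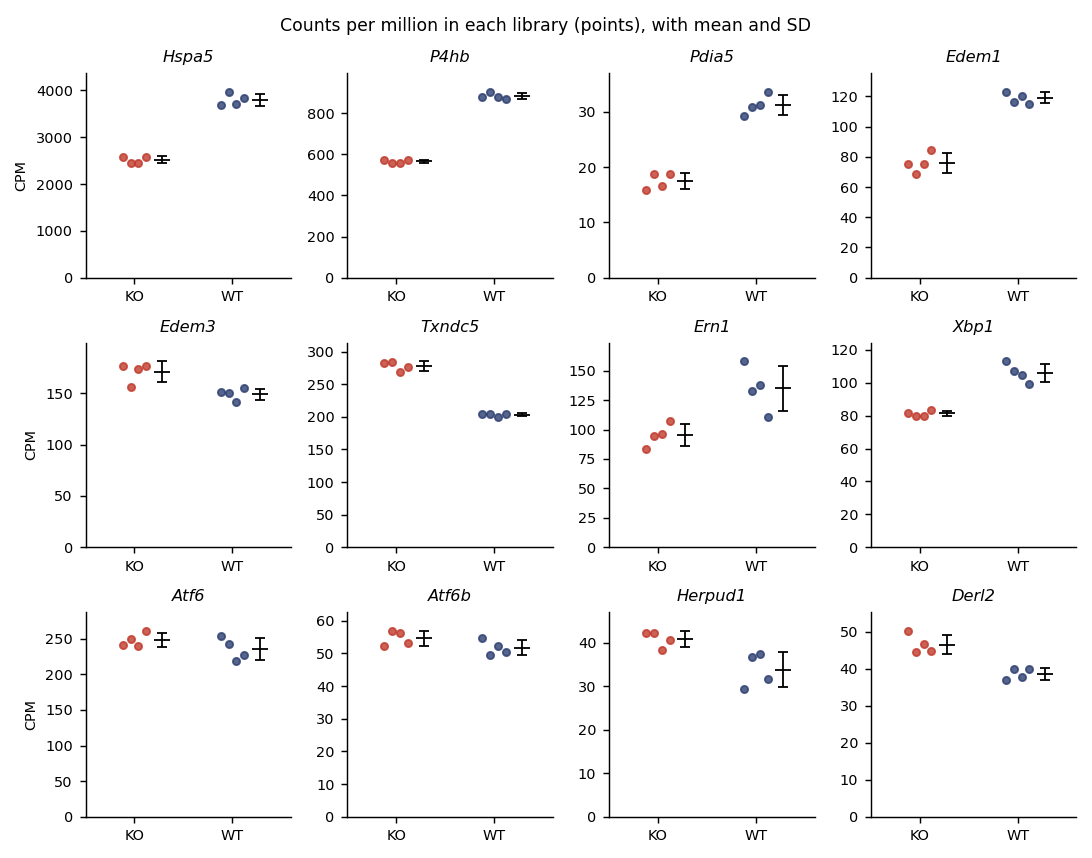
CPM (TMM-scaled) of 12 genes in each of the 4 KO (left) and 4 WT (right) libraries, with the mean and SD beside the points and axes that start at 0. KO points of Hspa5, P4hb, Pdia5, Edem1, Ern1 and Xbp1 lie below all WT points, those of Edem3, Txndc5, Herpud1 and Derl2 lie above, and those of Atf6 and Atf6b overlap.

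Levels of different genes were compared per kilobase of the gene length given in the count table, whose derivation is not stated. Hspa5 was the most abundant of these genes at 594 CPM per kilobase in KO cells and 899 in WT cells, followed by Calr (253 in KO and 330 in WT cells) and P4hb (197 in KO and 308 in WT cells). The lowest tested gene was Derl2, at 5.79 CPM per kilobase in KO cells and 4.8 in WT cells. Of the 10 genes that were most abundant in WT cells, 7 were lower in KO cells and none were higher, with a median log2 fold change of -0.20. Of the other 33 tested genes, 13 were lower and 7 were higher, with a median of -0.05. Over all tested genes 21.1% were lower and 21.7% were higher. Ranking by the WT level, which also enters the fold change, favours genes that are lower in KO cells. With the KO level instead, Txndc5 (called higher, 61.9 CPM per kilobase in KO cells) would replace Sdf2l1 (called lower, 46.4). The 44 genes took 0.953, 0.926, 0.93 and 0.944% of all counts in KO libraries, against 1.13, 1.2, 1.15 and 1.17% in WT libraries. Without Hspa5 the share was 0.688 ± 0.00519% in KO libraries and 0.783 ± 0.015% in WT libraries (SD, n = 4 each), so the lower share did not rest on BiP alone. Hspa5 made up 26.2 to 27.1% of the counts of these genes in KO libraries and 32.4 to 33.2% in WT libraries. The ERAD channel group alone took 0.153 ± 0.00223% of counts in KO libraries and 0.149 ± 0.00376% in WT libraries.

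**Figure D4:**
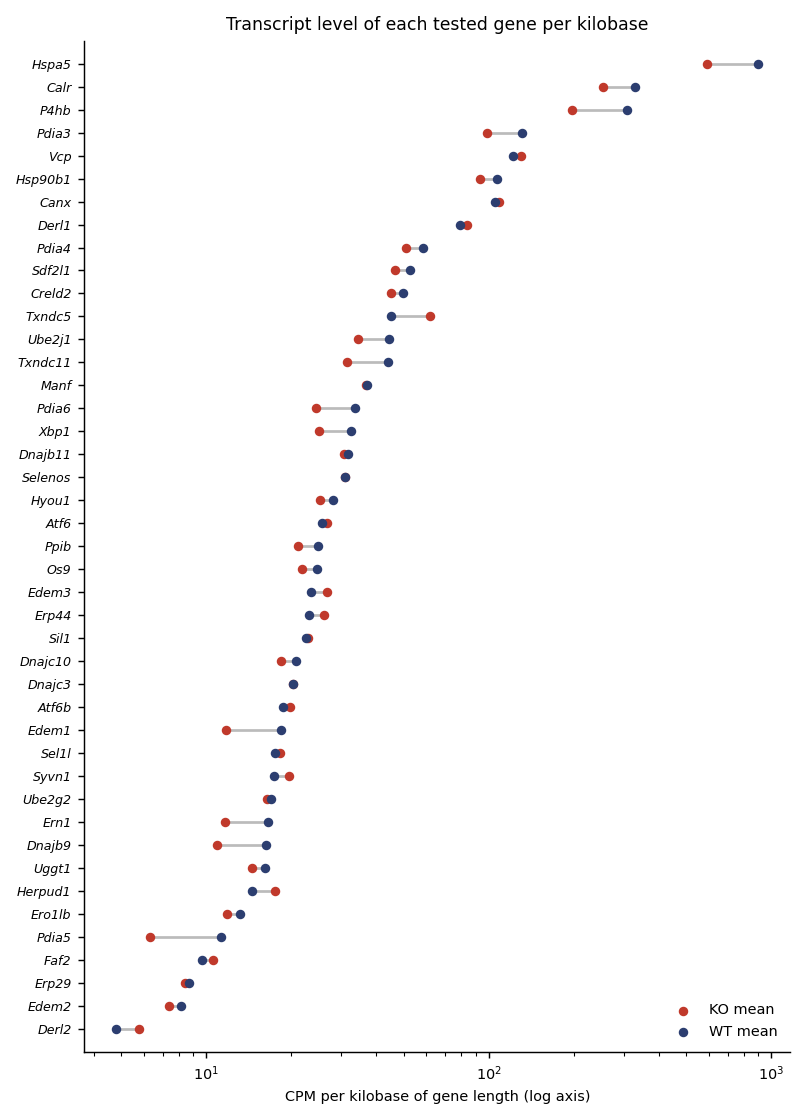
Mean level of each of the 43 tested genes in CPM per kilobase of gene length on a log axis, in KO (red) and WT (blue) cells, ordered by the WT level. The 10 most abundant genes at the top, led by Hspa5 at 594 in KO and 899 in WT cells, have the KO point left of the WT point except for Vcp, Canx and Derl1.

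Of the 27 called genes, 18 kept their call and direction in all 16 alternative settings, including leaving out each library in turn. These were Derl2, Edem3, Herpud1 and Txndc5 among the higher genes, and Calr, Dnajb9, Dnajc10, Edem1, Ern1, Hspa5, P4hb, Pdia3, Pdia5, Pdia6, Ppib, Txndc11, Ube2j1 and Xbp1 among the lower genes. The calls of 8 others depended on single libraries. Hsp90b1 lost its call without KO library 2, 3 or 4 or WT library 2, 3 or 4 (adjusted p 0.0545 to 0.12), and Sdf2l1 without any KO library or without WT library 2 or 3 (0.0639 to 0.182). Uggt1 lost it without KO library 1, 2 or 3 or WT library 1 or 2 (0.0619 to 0.086), and Os9 without KO library 1, 3 or 4 or WT library 2 or 3 (0.0552 to 0.0907). The calls of Erp44 (without KO library 3 or WT library 1 or 3, adjusted p 0.0535 to 0.0818), Ero1lb (without KO library 2 or 4 or WT library 2 or 4, 0.0515 to 0.0902) and Syvn1 (without KO library 2 or 4 or WT library 4, 0.0528 to 0.068) were lost in fewer cases. Faf2 lost its call without any KO library or without WT library 2 or 3 (0.0531 to 0.123). WT library 4 also decided the genes just outside the threshold, since without it Hyou1 (-0.19, adjusted p = 0.00901) and Creld2 (-0.17, adjusted p = 0.0226) were called lower.

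Other genes of the same pathways, outside the 44, were counted in the same way. Of 50 tested further folding and ERAD genes, 16 were lower in KO cells (32%), 11 were higher (22%) and 23 were not called. Their median log2 fold change was -0.01, and 54% were called. Among all tested genes 21.1% were lower, 21.7% were higher and 42.7% were called. The share called was 51.1% among genes at or above the mean level of the least abundant ER gene tested. The furthest of the 50 were Gpx7 (-1.71), an ER peroxidase that feeds oxidising power to isomerases, Fkbp11 (-1.22), a proline isomerase, Erlin1 (0.81), an ERAD adaptor on chromosome 19, and Fbxo2 (-0.76), a ligase subunit for glycoproteins. Clgn, Pdia2 and Ppic were at 0 counts in all libraries. Of 24 genes of the translocon, the signal peptidase and the oligosaccharyltransferase, which bring chains into the ER and attach their sugars, 11 were lower (45.8%) and 1 was higher (4.17%), with a median of -0.09. Rpn1 (-0.55), Ostc (-0.48), Ssr2 (-0.44) and Sec61a1 (-0.42) changed most, and Ostc and Ssr2 lie on chromosome 3. In the PERK branch, the arm of the response that acts through translation, 2 of 9 tested genes were higher (22.2%), 2 were lower (22.2%) and 5 were not called. Both shares were near those of all tested genes (21.7% higher and 21.1% lower). Atf4 (0.79), the transcription factor of this branch, and Chac1 (0.63), a glutathione-degrading enzyme, were higher. Chac1 was low, at 4.74 to 6.3 CPM in KO libraries and 2.41 to 5.3 CPM in WT libraries, with overlap (edgeR adjusted p = 0.0252). Trib3 (-0.27), a pseudokinase, and Eif2s1 (-0.19), a translation initiation factor subunit, were lower, and Ddit3 (CHOP, 0.03) and Eif2ak3 (PERK, 0.07) were not called. Of 6 mRNAs known to be cut by IRE1, 3 passed the filter: Hgsnat was higher (0.22), Pmp22 was lower (-0.23) and Col6a1 was not called (0.03).

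Markers of other testis cells were also measured, and some lists differed between the groups. Summed markers of Sertoli cells reached 359 to 406 CPM in KO libraries and 222 to 241 CPM in WT libraries, mostly from Rhox5, while 2 of the 5 (Amh and Fshr) had at most 10 counts in every library. Endothelial markers summed to 100 to 120 CPM in KO libraries and 182 to 210 CPM in WT libraries, nearly all from Cdh5. Macrophage markers summed to 3.35 to 5.39 CPM in KO libraries and 6.89 to 9.18 CPM in WT libraries, nearly all from Csf1r, with Adgre1 and Ptprc at 0. Germ cell markers (2.9 to 4.81 CPM in KO and 1.56 to 4.16 CPM in WT libraries, Tnp1 at 0) and peritubular myoid markers (10.7 to 12.8 CPM in KO and 11.8 to 15 CPM in WT libraries) overlapped between the groups. The part of these differences in the results was not tested.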

How the data were processed

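Poly-A RNA of 8 libraries had been sequenced. The authors deposited raw read counts per gene, aligned with HISAT2 2.0.5 and counted with featureCounts 1.5.0-p3 per the labels. The builds GRCh37, hg19 and mm39 stand in the labels without a role, while the positions of the deposited table are those of GRCm38 (43 of the 44 genes matched RefSeq GRCm38.p6 by symbol, and all 43 overlap it). The sources used here give no strand or multi-mapping setting. The spans of 8 tested genes overlap another tested gene (Derl2, Erp29, Hsp90b1, Manf, Pdia3, Syvn1, Txndc11 and Txndc5), all on the opposite strand and Manf also on its own, so their counts are less certain.

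Counts were fitted with edgeR 4.0.16 in R 4.3.3: filterByExpr (minimum count 10, minimum total 15), TMM, and the quasi-likelihood F test with genotype as the only term (2-sided), with Benjamini-Hochberg adjustment over all 13185 tested genes. A gene was called at an adjusted p below 0.05, and the study's limit of 0.5 on the log2 fold change was counted separately. The study used DESeq2, run here (1.42.0) as an alternative beside DESeq2 size factors, total counts, other filters, limma voom (limma 3.58.1), centring on chromosome medians, glmTreat, a replicate block and leaving out each library. The biological coefficient of variation was 7.11%. No 2 libraries were copies. Figures were drawn with matplotlib 3.10.9 in Python 3.11.15.

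The genes, the lists and the rules were chosen with earlier results of these data known. Values in every library are printed for genes called past the limit, the 2 largest calls per role and direction, the most abundant gene per role, the sensors, P4hb, genes whose call changed with a setting other than leaving out a library, and Mttp. Protein sequences were not used here.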

Additional observations from a re-analysis of the deposited data

Results flagged for a closer look

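In 4 of the 86 groups of 4 libraries examined (43 genes in KO and WT cells), 1 library stood apart from the other 3 by more than the critical value of Dixon's test at the 95% level. Chance gives this in about 1 of 20 groups. Pdia6 had 86.3 CPM in KO library 4, against 93.2 to 94.5 CPM in the other KO libraries. Txndc11 had 317 CPM in KO library 2, against 262 to 269 CPM in the others, and Edem3 had 156 CPM in KO library 2, against 174 to 177 CPM. Erp29 had 70.5 CPM in WT library 1, against 80.8 to 81.4 CPM in the other WT libraries. The calls of Pdia6, Txndc11 and Edem3 held, and Erp29 was not called, without the library that stood apart.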

How the results depend on the processing

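Over the settings other than leaving out a library, the numbers of genes higher and lower in KO cells stayed within 1.5 times those of the report, except under the replicate block. When centred on chromosome medians, 4 were past the limit in the lower direction, with Dnajb9 (-0.49) and Ern1 (-0.48) short of it. By limma voom and without a filter, 5 were past it. Without 1 library at a time there were 5 to 6 higher, 15 to 20 lower and 4 to 6 past the limit in the lower direction. A test against the fold limit itself (glmTreat) left 3 of the 6 past it, Pdia5, P4hb and Edem1. The groups share replicate numbers, but same-numbered libraries did not deviate together (correlations -0.152, 0.04, 0.041 and -0.147). Differently numbered pairs ran from -0.072 (KO library 3 with WT library 1) to 0.183 (KO library 4 with WT library 1). These values gave no sign of pairing by number, and other links between libraries were not tested. With the replicate block 4 genes were higher, 15 lower and 5 past the limit in the lower direction, and the 8 genes no longer called were those whose calls were lost without single libraries (Hsp90b1, Sdf2l1, Uggt1, Ero1lb, Os9, Erp44, Syvn1 and Faf2, adjusted p 0.0508 to 0.0911). There were 4821 and 5632 calls over all tested genes with and without it. Centring on chromosome medians turned Syvn1 to -0.32, Derl1 to -0.03, Dnajc3 to -0.08 and Manf to 0.00, and ended the call of Pdia4 (-0.10, adjusted p = 0.124). Dnajc3 was -0.01 with total counts and with 10 counts in every library, and Selenos was 0.00 by DESeq2 and 0.01 without a filter. Leaving out a library moved Dnajc3 between -0.02 and 0.05, Manf between -0.04 and 0.01, Selenos between -0.03 and 0.02 and Ube2g2 between -0.08 and 0.01. Of the sign changes only that of Syvn1 concerned a called gene. Sdf2l1 lost its call by DESeq2 (adjusted p = 0.0598), Ero1lb (0.065), Os9 (0.0534) and Faf2 (0.0956) without a filter, and Faf2 also with total counts, 10 counts per library and centring (0.0591 to 0.0597). Hyou1 and Creld2 were called lower with total counts and with 10 counts per library (adjusted p 0.0384 to 0.0448), and Creld2 also when centred (-0.25, adjusted p = 0.00249). The cause of these changes was not tested. Derl3, at 0 to 11 counts, was too low to test.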
